A study of Mus musculus with 6 samples.

Results

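The genes described here are the 9 that encode the mTOR kinase complexes, their inhibitor DEPTOR, the TSC complex with its target RHEB, and PIK3IP1, an inhibitor of the PI3K that lies upstream. They were taken by name: Mtor, Mlst8, Rptor, Rictor, Deptor, Tsc1, Tsc2, Rheb and Pik3ip1. All 9 were found among the 22559 genes with a count in the deposited transcript files, all 9 have a row in the deposited gene-level table of 11241 named entries, and all 9 passed the filter on low counts.

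mTOR is a serine/threonine kinase that works in a pair of complexes. In mTORC1 it is joined by RAPTOR and promotes translation and growth when amino acids and growth signals are present, and in mTORC2 it is joined by RICTOR and phosphorylates AKT, SGK1 and protein kinase C. The TSC1 and TSC2 proteins turn off the small GTPase RHEB, the direct activator of mTORC1, and AKT relieves that brake. In CD4+ T cells both complexes are switched on by the T cell receptor and CD28 and bear on which helper fate a cell takes. CUL5 is the scaffold of a family of ubiquitin ligases, and DEPTOR is among the proteins that ubiquitin ligases turn over. Regulation of that kind acts on proteins and is not measured by RNA counts.

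Naive CD4+ T cells came from spleens and lymph nodes of C57BL/6 mice aged 8 to 10 weeks, in 2 groups of 3 samples. WT samples were from Cul5fl/fl littermates that lacked Cre, and Cul5 cKO samples from Cul5fl/fl CD4-Cre mice, in which exons 9 to 11 of Cul5 are removed in all cells that have expressed Cre from Cd4 regulatory elements, CD8 T cells included. Both groups therefore carry the floxed allele, and only the cKO group carries Cre. All 6 cultures were Th9 cultures, which drive production of IL-9, harvested at 48 h, and belong to a single experiment. The receptor was stimulated with anti-CD3 (2 µg/ml) together with anti-CD28 (1 µg/ml). TGF-β was given at 2.5 ng/ml, IL-4 at 20 ng/ml and an antibody to IFN-γ at 10 µg/ml. No source used here says whether each sample is a separate mouse, so p-values measure the spread between these samples.

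The libraries held between 3944803 counts (WT replicate 3) and 23454552 counts (Cul5 cKO replicate 3), and the other 4 were within 23111689 to 23404769. Values are given as CPM, the counts in each 1000000 of a library's total, scaled by edgeR's TMM method. A floor of 3 counts stood at 0.759 CPM in WT replicate 3 and at 0.128 to 0.133 CPM elsewhere, and covers counting error only. Over 12925 genes, log2 CPM did not group all libraries by genotype. WT replicate 1 correlated more closely with Cul5 cKO replicate 1 (r = 0.986) than with WT replicate 2 (r = 0.983) or WT replicate 3 (r = 0.967). WT replicate 2 was as close to Cul5 cKO replicate 2 (r = 0.983) as to WT replicate 1 and closer than to WT replicate 3 (r = 0.977). Cul5 cKO replicates 2 and 3 were closest to each other (r = 0.989). Cul5 itself stood at 64.4, 69.3 and 65.0 CPM in WT and at 10.6, 14.2 and 13.1 CPM in Cul5 cKO, in the direction of the labels (log2 fold change -2.39, SE 0.115, adjusted p = 0.000992 in edgeR's quasi-likelihood test). The 7 CD4 T cell markers summed to 1623 to 1755 CPM in WT and to 1465 to 1568 CPM in Cul5 cKO. Of them Cd28 was called lower. The 5 Th9 markers (Il9, Irf4, Batf, Gata3 and Spi1) summed to 1188 to 1550 CPM in WT and to 1757 to 2562 CPM in Cul5 cKO. Of the 4 that could be tested only Il9 was called. Il9, the cytokine that defines Th9 cells, was named after its values were seen. It stood at 297.6 to 355.4 CPM in WT and at 728.6 to 1021 CPM in Cul5 cKO. Markers of B cells (15.1 to 19.2 CPM in WT, 6.47 to 48.0 in Cul5 cKO), myeloid cells (6.23 to 10.9 and 5.43 to 20), CD8 T cells (5.76 to 6.53 and 4.3 to 11.6), NK cells (0.779 to 1.07 and 0.351 to 0.711, with Ncr1 at 0 throughout) and erythroid cells (0 to 0.897 and 1.07 to 2.67) were low. Their part in the results below was not tested.

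None of the 9 genes passed an adjusted p of 0.05 between genotypes, where 133 of 12925 genes did (1.03%, of which 0.611% higher and 0.418% lower in Cul5 cKO). At an unadjusted p under 0.05, Pik3ip1 and Rictor were lower and Rheb was higher in Cul5 cKO, beside 21.3% of all genes (10.4% lower, 10.9% higher). The other 6 had log2 fold changes smaller than 0.2 in size. Over the 9 genes the median log2 fold change was -0.08, and over all genes tested it was -0.01. Other tools applied to all samples called 1 of the 9 with DESeq2 (5.36% of all genes) and 2 with limma voom (9.74%). Here and below, limma voom was run with quality weights, so the samples did not count equally. Replicates 2 and 3 alone called 3 of the 9, beside 8.83% of all genes, and replicate 1 as a term called 2, beside 13.1%. Both settings single out the pair of libraries that are alike across genotypes, a choice that depends on the outcome compared, so their calls are not used as support.

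**Figure D1:**
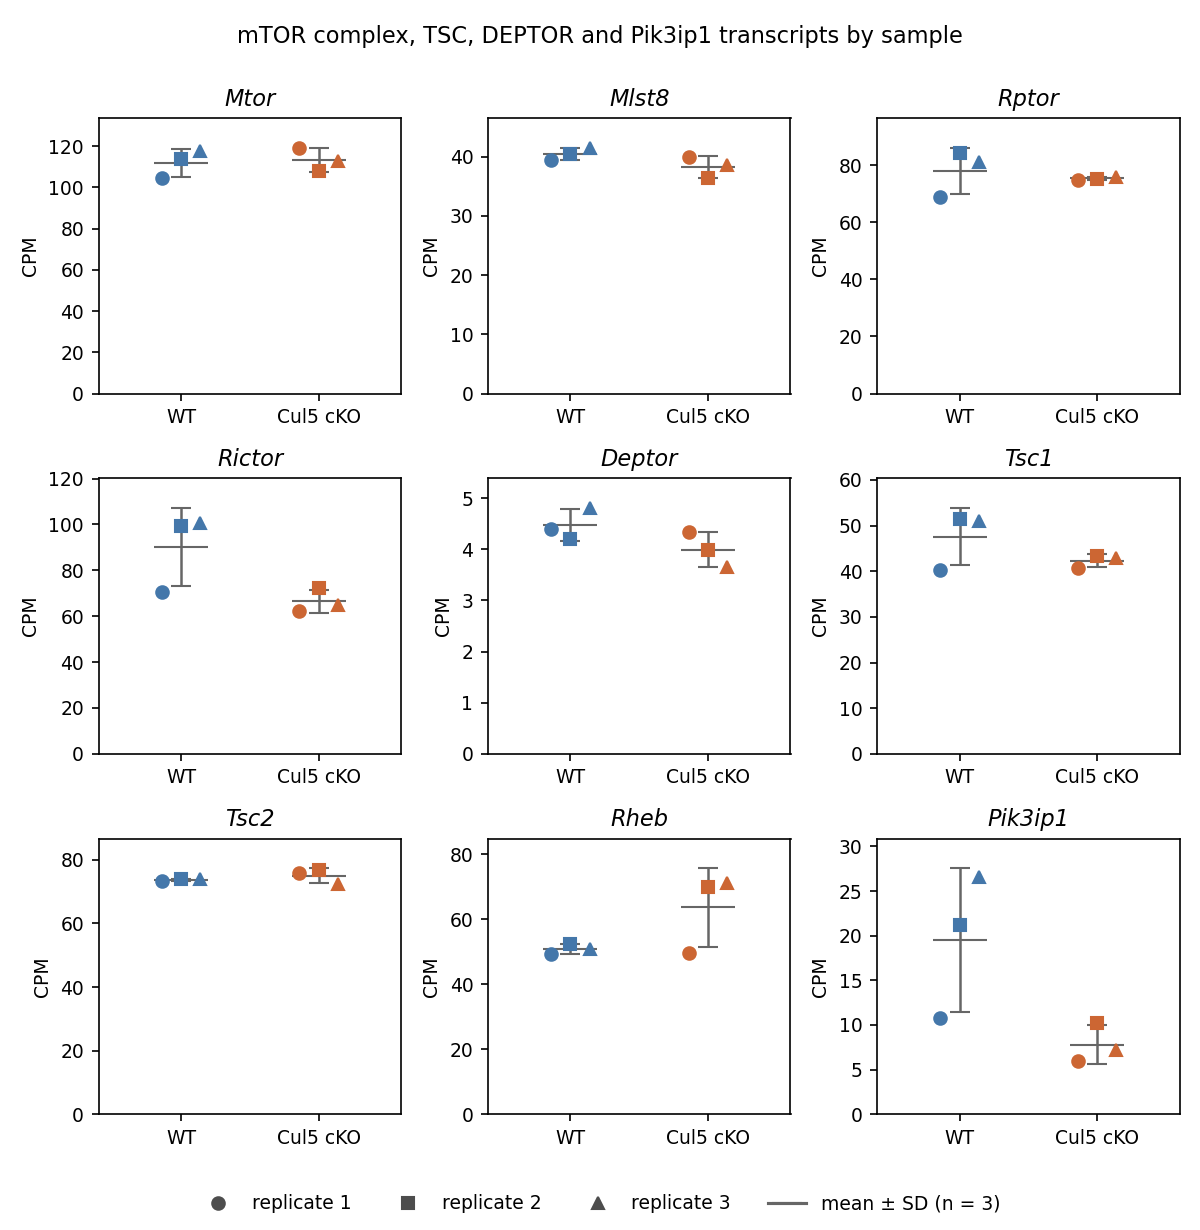
Normalized level in CPM (y axis, from 0) of each of the 9 genes in 3 WT and 3 Cul5 cKO samples, 1 panel per gene. Symbols mark the replicate number, the horizontal bar is the mean and the whisker the SD. Pik3ip1 is the only panel in which the genotypes do not overlap, and in 8 of the 9 panels, all but that of Deptor, the lowest WT sample is replicate 1.

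Mtor, the kinase shared by both complexes (chromosome 4, 148448611 to 148557683 on GRCm38), stood at 104.6, 113.6 and 117.7 CPM in WT and at 119.3, 107.8 and 113.0 CPM in Cul5 cKO. The genotypes overlapped, with Cul5 cKO replicate 1 the highest of the 6 samples and WT replicate 1 the lowest. Its log2 fold change was 0.02 (SE 0.073, 95% interval -0.15 to 0.19, adjusted p = 0.898), and its sign turned in 9 of 21 other settings of the processing, so no direction is given for it. Mlst8 (chromosome 17, 24473551 to 24479078) encodes a subunit of both complexes that binds the kinase domain. It stood at 39.4, 40.4 and 41.5 CPM in WT and at 40.0, 36.3 and 38.5 CPM in Cul5 cKO, a log2 fold change of -0.08 (SE 0.0704, interval -0.24 to 0.09, adjusted p = 0.57).

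Rptor (chromosome 11, 119602905 to 119899576) encodes RAPTOR, which brings substrates to mTORC1. It stood at 68.8, 84.1 and 81.2 CPM in WT and at 74.9, 75.3 and 75.9 CPM in Cul5 cKO, so that all 3 Cul5 cKO samples lay inside the WT range. The log2 fold change was -0.05 (SE 0.0864, interval -0.25 to 0.16, adjusted p = 0.791).

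Rictor (chromosome 15, 6708379 to 6800401) encodes the subunit that defines mTORC2. It stood at 70.6, 99.3 and 100.7 CPM in WT and at 62.4, 72.2 and 64.7 CPM in Cul5 cKO. WT replicates 2 and 3 were above every Cul5 cKO sample, while WT replicate 1 lay between Cul5 cKO replicates 2 and 3. Mean Rictor in Cul5 cKO was 73.6% of that in WT, with a log2 fold change of -0.43 (SE 0.142, interval -0.76 to -0.10, unadjusted p = 0.0172, adjusted p = 0.154). The adjusted p ranged from 0.019 to 0.405 over 19 other settings and was under 0.05 in 5 of them. These include replicates 2 and 3 alone (0.019) and replicate 1 as a term (0.0247), which are not used as support. The others were the fit without WT replicate 1, a block on replicate number (0.0445) and limma voom (0.0344). The block pairs samples that are not taken as pairs, and voom did not weight samples equally. With DESeq2 the adjusted p was 0.063. With only WT replicate 1 left out, the WT sample nearest to Cul5 cKO, the log2 fold change was -0.59 (adjusted p = 0.0339). Dropping the nearest sample widens the difference by construction, so this fit is not used as support either. Leaving out any other single sample gave an adjusted p of 0.223 to 0.405. In these bulk samples, fewer cells that express a gene and less RNA per cell cannot be told apart.

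Deptor (chromosome 15, 55112317 to 55259271) encodes the inhibitor bound to mTOR in both complexes. It was the least abundant of the 9, with 103, 97 and 19 counts in WT and 100, 91 and 82 counts in Cul5 cKO. In CPM this was 4.4, 4.2 and 4.81 in WT and 4.34, 3.99 and 3.65 in Cul5 cKO, and the genotypes overlapped. Its log2 fold change of -0.15 (SE 0.184, adjusted p = 0.681) had the widest interval but that of Pik3ip1, -0.58 to 0.28. Nearly all Deptor counts (95.7% to 100%) were assigned to the longest transcript, Deptor-202. With the other libraries thinned to the depth of WT replicate 3, the log2 fold change was -0.71 (adjusted p = 0.199).

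Of the TSC genes, Tsc1 (chromosome 2, 28641228 to 28691167) encodes the scaffold that stabilizes the complex. It stood at 40.3, 51.5 and 50.9 CPM in WT and at 40.7, 43.3 and 43.0 CPM in Cul5 cKO. WT replicate 1 was the lowest of the 6 samples and the other WT samples were the highest. The log2 fold change was -0.16 (SE 0.105, interval -0.41 to 0.09, adjusted p = 0.428). Tsc2 (chromosome 17, 24595816 to 24632630) encodes the subunit that makes RHEB hydrolyse its GTP. It was the steadiest of the 9 genes in WT, at 73.4, 73.9 and 73.9 CPM, and stood at 75.9, 76.8 and 72.3 CPM in Cul5 cKO. Its log2 fold change was 0.02 (SE 0.0595, interval -0.11 to 0.16, adjusted p = 0.848), and its sign turned in 6 of 21 other settings.

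Rheb (chromosome 5, 24802823 to 24842624), the GTPase that TSC holds in check, stood at 49.4, 52.3 and 50.9 CPM in WT and at 49.7, 69.9 and 71.2 CPM in Cul5 cKO. Cul5 cKO replicates 2 and 3 were above all WT samples, and Cul5 cKO replicate 1 was inside the WT range. Its log2 fold change of 0.32 (SE 0.138, unadjusted p = 0.0499, adjusted p = 0.234) had an interval from 0.00 to 0.64. The adjusted p ranged from 0.0197 to 0.553 over 19 other settings. It was under 0.05 only in the 2 that leave out Cul5 cKO replicate 1. Of these, replicates 2 and 3 alone (0.0197) is not used as support. With only Cul5 cKO replicate 1 left out, the Cul5 cKO sample nearest to WT, the log2 fold change was 0.48 (adjusted p = 0.0461). Dropping the nearest sample widens the difference by construction, so this fit is not used as support either. Leaving out any other single sample gave an adjusted p of 0.309 to 0.553.

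Pik3ip1 (chromosome 11, 3330401 to 3342971) encodes a transmembrane protein that binds the PI3K catalytic subunit and lowers its activity, and is known as a restraint on T cell activation. It stood at 10.8, 21.2 and 26.6 CPM in WT and at 5.95, 10.2 and 7.2 CPM in Cul5 cKO. Every Cul5 cKO sample was below every WT sample, a pattern that 27.5% of all tested genes had in either direction, and the closest were WT replicate 1 and Cul5 cKO replicate 2. Mean Pik3ip1 in Cul5 cKO was 39.8% of that in WT. The log2 fold change was -1.28 (SE 0.344, interval -2.08 to -0.48, unadjusted p = 0.00673, adjusted p = 0.112). An exact two-sided permutation test gave p = 0.1, the smallest that 3 samples against 3 allow. The adjusted p ranged from 0.00247, with DESeq2, to 0.347 over 19 other settings and was under 0.05 in 6 of them. These include replicates 2 and 3 alone (0.0198) and replicate 1 as a term (0.00991), which are not used as support. Also among them are a block on replicate number (0.0184) and limma voom (0.0393). The block pairs samples that are not taken as pairs, and voom did not weight samples equally. Without WT replicate 1, the WT sample nearest to Cul5 cKO, the log2 fold change was -1.60 (adjusted p = 0.0403). Dropping the nearest sample widens the difference by construction, so this fit is not used as support either. Leaving out any other single sample gave an adjusted p of 0.161 to 0.347. The smallest change was -1.04, without WT replicate 3. Direction held in all 21 settings.

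**Figure D2:**
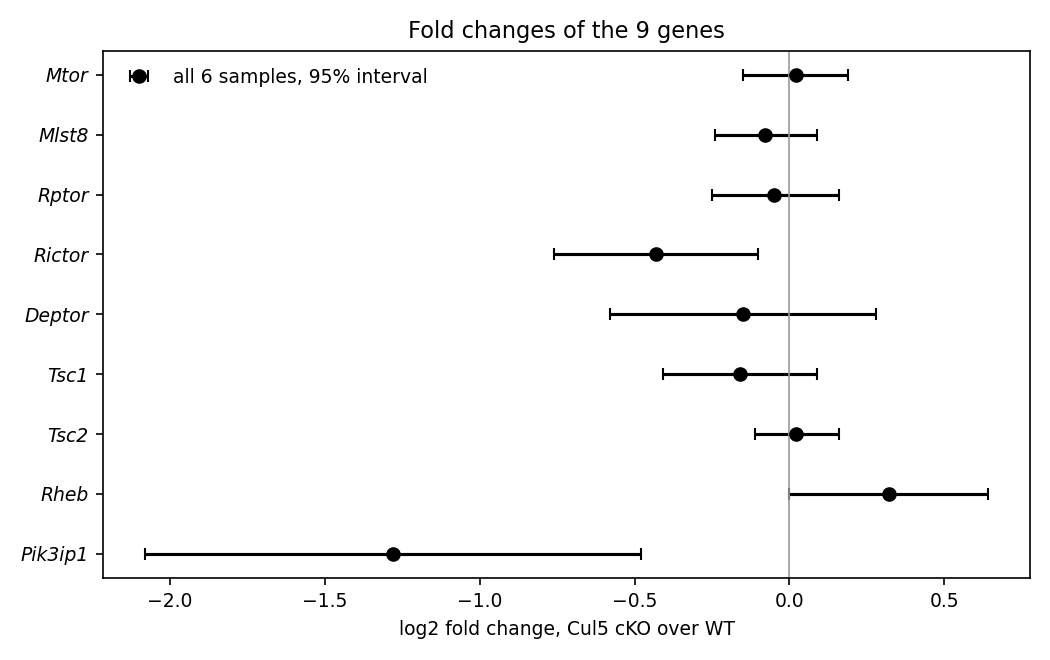
Log2 fold change (x axis, Cul5 cKO over WT, 0 marked by a line) of the 9 genes from all 6 samples (circles) with 95% intervals (bars). The intervals of Pik3ip1 and Rictor lie below 0, that of Rheb starts at 0.00, and those of the other 6 genes include 0.

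The start of Pik3ip1 is printed because it is the gene with the largest difference of the 9. RefSeq (GRCm38.p6) held promoter windows for 8 of the 9 genes, and the entry of Deptor was missing. The window of Pik3ip1 starts 250 bases before the RefSeq transcription start, and its first 275 bases, chr11:3330481-3330755 on the plus strand, are shown 5′ to 3′. The annotations differ here. In GENCODE, used for the counts, the gene starts at 3330401, so the whole printed stretch lies within it. Capitals mark matches to CACCC, a box bound by Krüppel-like factors, and to TTCNNNNGAA, the spacing favoured by STAT6, both searched on both strands. The matches do not overlap.
Pik3ip1: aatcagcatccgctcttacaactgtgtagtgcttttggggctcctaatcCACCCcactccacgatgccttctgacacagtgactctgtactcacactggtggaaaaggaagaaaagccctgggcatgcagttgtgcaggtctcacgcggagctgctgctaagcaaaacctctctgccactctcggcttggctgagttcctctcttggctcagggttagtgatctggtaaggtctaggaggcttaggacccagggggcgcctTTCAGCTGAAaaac
The first match begins 201 bases upstream of the RefSeq start and the second 11 bases downstream of it. Of 32851 promoter windows of 300 bases, 57.5% held CACCC and 6.95% held TTCNNNNGAA. The FOXO sequence GTAAACA (3.65% of windows), the STAT5 spacing TTCNNNGAA (8.3%) and the E-box CACGTG (7.15%) had no match in the window of Pik3ip1. Among the other 7 genes, TTCNNNNGAA and GTAAACA had no match, TTCNNNGAA was found once, in Mtor, and CACGTG once, in Rheb. A match describes the letters only.

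Levels can be compared between genes only per length, in TPM, kallisto's length-scaled share of each transcript. In WT the order ran from Rheb (43.4 ± 1.24 TPM, SD, n = 3) over Mtor (31.0 ± 7.29), Tsc2 (30.5 ± 4.6), Mlst8 (24.2 ± 1.88), Rptor (22.3 ± 3.57), Pik3ip1 (19.1 ± 7.96), Rictor (14.9 ± 3.2) and Tsc1 (12.1 ± 2.34) to Deptor (0.724 ± 0.0197). Samples of neighbours in this order did not overlap between Rheb and Mtor, Tsc2 and Mlst8, and Tsc1 and Deptor, and all other neighbours overlapped. Rheb was 59.9-fold above Deptor, and Tsc1, the next lowest, was 16.7-fold above it. In Cul5 cKO, Pik3ip1 averaged 7.5 ± 2.55 TPM and came after Rictor (10.5 ± 0.838) and Tsc1 (10.4 ± 1.56). There, Deptor was again lowest (0.663 ± 0.0717) and Rheb highest (53.2 ± 9.46).

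The deposited gene-level table, in log2 CPM, and the sum over transcripts gave different pictures of Tsc2. Converted from log2, the table lists Tsc2 at 5.1, 3.92 and 0.124 CPM in WT and at 0.108, 4.24 and 3.48 CPM in Cul5 cKO, or 0.143% to 6.94% of the summed level. The nearest single transcript was Tsc2-201, which stood at 4.58, 3.5 and 0.0155 CPM in WT and at 7.01e-06, 3.81 and 3.11 CPM in Cul5 cKO. The 533 bases of Tsc2-201 that the main Tsc2 forms lack (chr17:24595937-24596469, 3′ UTR, minus strand) all lie within exons of Pkd1, transcribed from the opposite strand. Pkd1 stood at 74.9 to 93.1 CPM in these samples, and the sources used here do not say whether the library kept the strand, so reads in this stretch cannot be divided between the genes. Mlst8 had a smaller gap of the same kind: the table lists 30.8, 35.9 and 21.3 CPM in WT and 30.8, 30.3 and 31.9 CPM in Cul5 cKO, close to Mlst8-201 plus Mlst8-202. In the table the log2 fold change of Tsc2 was -0.21 and that of Mlst8 0.11, both with the sign opposite to the summed counts and neither called (limma, adjusted p = 0.961 and 0.786). For the other 7 genes the table lay between 91.7% and 144% of the sum, the top value being Mtor in WT replicate 3. Over 10733 genes in both, 492 (4.58%) were listed at under 50% of the summed level and 61 (0.568%) at under 10%.

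**Figure D3:**
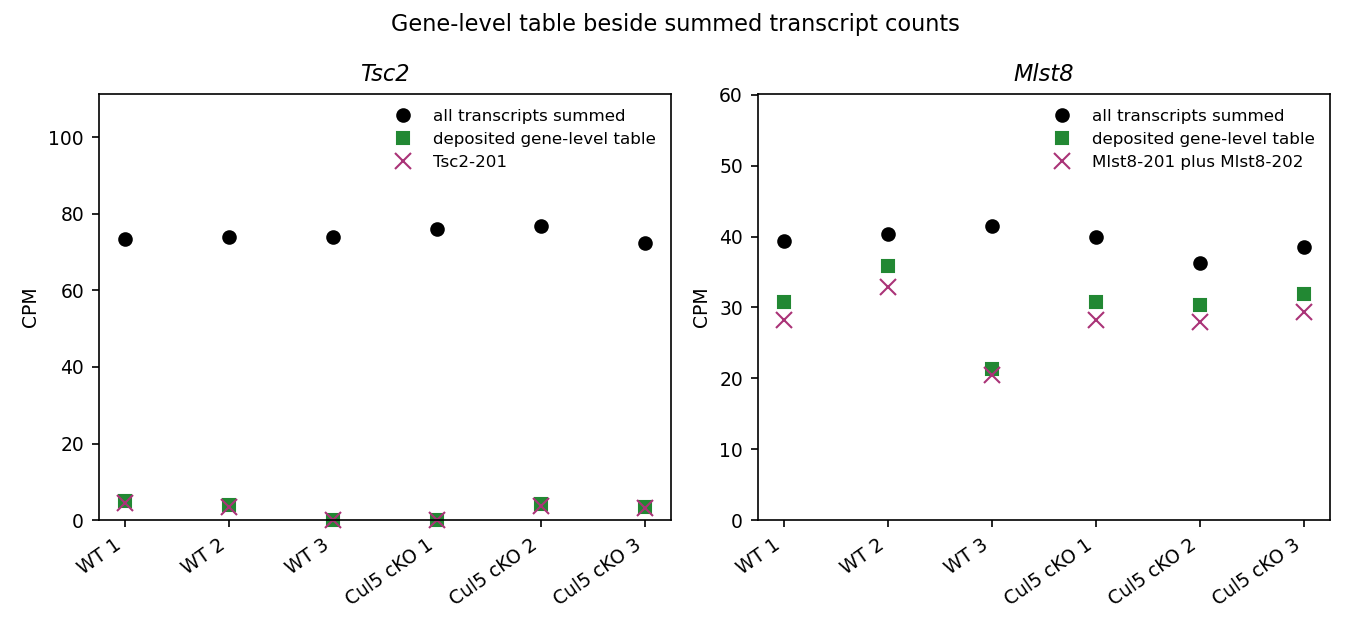
Level in CPM (y axis, from 0) of Tsc2 and Mlst8 in each of the 6 samples (x axis), as the sum over all transcripts (circles), in the deposited gene-level table (squares) and for the named transcripts alone (crosses). For Tsc2 the squares lie on the crosses near 0 while the circles stay between 72.3 and 76.8 CPM.

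The main coding forms of Tsc2 and Tsc1 differ by short stretches of whole codons, and those are printed because they tell the forms apart. Sequences are from GENCODE transcripts on GRCm38, 5′ to 3′ in the direction of the gene, with the alternative stretch in capitals and its flanks in lower case. In Tsc2-205 an exon opens with CAG at chr17:24604990-24604992 (minus strand) and in Tsc2-221 it does not. Tsc2-217 has 2 further exons, of 129 bases at chr17:24606224-24606352 and of 69 bases at chr17:24601389-24601457. In Tsc1-201 a stretch of 15 bases at chr2:28678952-28678966 (plus strand) is present that Tsc1-202 lacks.
Tsc2-205: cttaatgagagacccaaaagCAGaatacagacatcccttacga
Tsc2-221: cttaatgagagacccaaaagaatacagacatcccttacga
Tsc2-217, 129 bases: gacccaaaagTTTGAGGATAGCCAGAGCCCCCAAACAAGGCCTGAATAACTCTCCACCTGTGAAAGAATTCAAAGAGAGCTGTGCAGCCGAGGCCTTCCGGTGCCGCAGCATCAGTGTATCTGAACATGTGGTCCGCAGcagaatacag
Tsc2-217, 69 bases: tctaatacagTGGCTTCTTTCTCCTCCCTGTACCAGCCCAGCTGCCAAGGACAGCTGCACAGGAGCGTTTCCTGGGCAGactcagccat
Tsc1-201: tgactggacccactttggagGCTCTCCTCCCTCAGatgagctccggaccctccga
Tsc1-202: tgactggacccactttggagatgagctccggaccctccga
Among coding Tsc2 transcripts that span it, the share of TPM with CAG was 57.0%, 43.1% and 25.3% in WT and 55.8%, 57.3% and 56.1% in Cul5 cKO, the lowest value being that of WT replicate 3 with 292 Tsc2 counts in all. The exon of 69 bases was in 10.3%, 10.1% and 9.69% of TPM in WT and in 12.7%, 14% and 11.1% in Cul5 cKO. These ranges did not overlap, as was the case for 11.9% of 29870 transcripts of tested genes, those with a mean of at least 3 counts and 5% to 95% of their gene's TPM. The exon of 129 bases was in 10.3%, 10.1% and 17.5% in WT and in 12.7%, 14% and 11.1% in Cul5 cKO, and overlapped. For Tsc1, the form with the 15 bases made up 53.2%, 72.0% and 49.3% in WT and 51.9%, 77.0% and 57.6% in Cul5 cKO. The shares are kallisto's estimates of how single-end reads of 50 bases divide between overlapping transcripts, and were not tested.

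A single coding transcript led in several of the other genes, by a margin that depended on the measure, since TPM gives short transcripts more weight than counts do. Rictor-201 took 83.5% to 94.2% of TPM and 96.3% to 97.9% of counts, and Rheb-201 took 87.4% to 96.0% and 89.2% to 92.0%. Mtor-202 took 41.9% to 68.5% of TPM, the lowest in WT replicate 3, and 91.3% to 95.8% of counts. Rptor-201 took 60.0% to 63.9% of TPM in WT and 71.9% to 74.6% in Cul5 cKO. Of counts it took 79.6% to 91.7% and 85.3% to 89.9%. Its shares of TPM did not overlap between genotypes, like those of 11.9% of transcripts, while its shares of counts did overlap. Mlst8 was divided among several forms of similar length, with Mlst8-202 at 23.4% to 36.4% of TPM. Mlst8-201 held 20.6% to 30.7% in 5 samples and was at 0 in WT replicate 3, where Mlst8-210 held 15.9% and was near 0 elsewhere. Of Pik3ip1, the longest coding transcript, Pik3ip1-201, held 39.3% to 53.5% of TPM in WT and 37.7% to 57.1% in Cul5 cKO. The short coding form Pik3ip1-206, of 668 bases, held 16.1% to 21.7% and 4.99% to 7.42%, on 13.9, 24.8 and 8.1 estimated counts in WT and 1.93, 4.16 and 4.33 in Cul5 cKO. The lowest of these is under the floor of 3 counts, and 11.9% of transcripts had shares that did not overlap between genotypes, as here.

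The 8 lists of pathway genes held 106 genes, of which 103 were tested. Sesn2 and Eif4ebp1 rose and Cul5 fell, 3 called genes beside the 1.03% of all genes, and at an unadjusted p 8 were higher and 19 lower (10.9% and 10.4% of all genes). The median over the lists was 0.00.

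**Figure D4:**
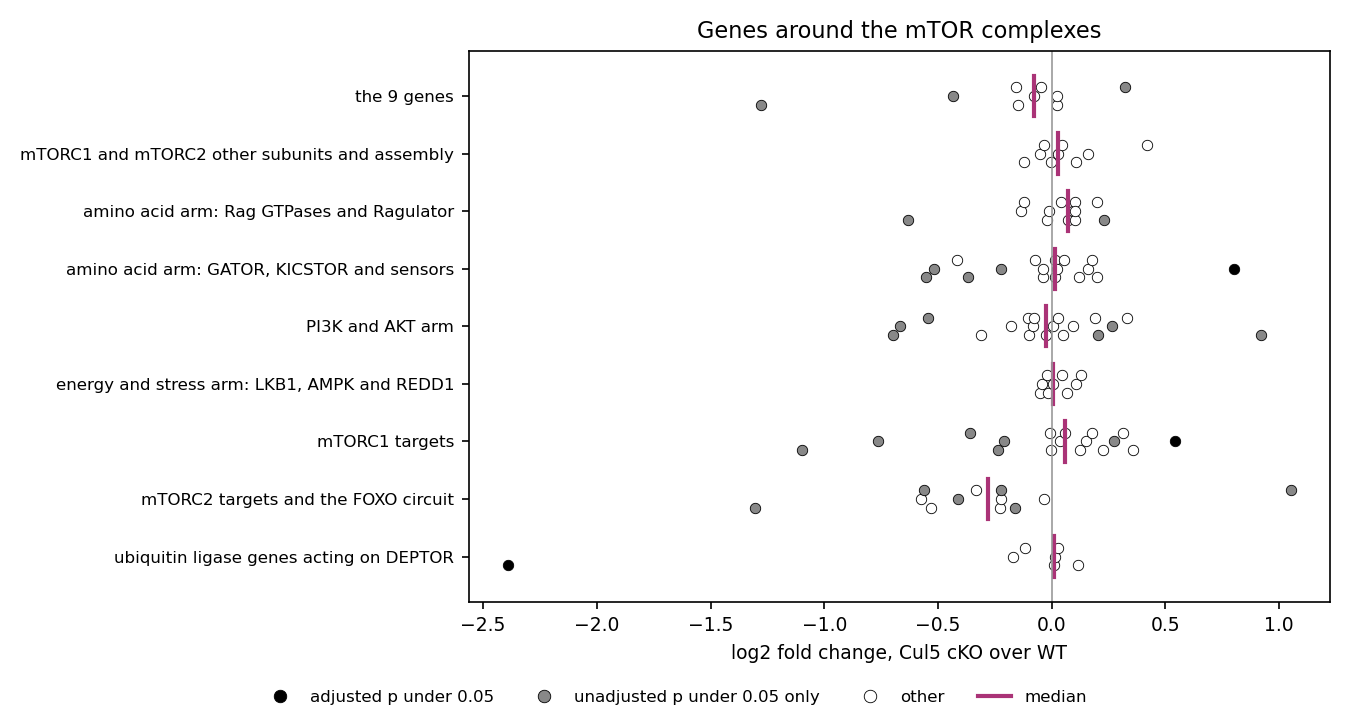
Log2 fold change (x axis, Cul5 cKO over WT) of each tested gene in the 9 genes and the 8 pathway lists (rows). Points are filled black at an adjusted p under 0.05 and grey at an unadjusted p under 0.05 only, and the vertical bar is the median. The row of mTORC2 targets and the FOXO circuit has 11 of 12 points below 0 and a median of -0.28, beside -0.01 over all genes tested. The other medians lie between -0.08 and 0.07. The lists were chosen with earlier results of these data known.

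None of the 9 further subunits and assembly factors was called or had an unadjusted p under 0.05 (median 0.03), and DESeq2 and limma voom called 0 as well. Nearest were Tti2, a chaperone partner for the assembly of mTOR (24.1 ± 1.2 and 25.9 ± 1.61 CPM, SD, n = 3 each, log2 fold change 0.11, adjusted p = 0.526), and Prr5, an mTORC2 subunit at the edge of detection (1.08 ± 0.167 and 1.39 ± 0.541 CPM, 0.42, adjusted p = 0.548).

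In the amino acid arm, 0 of 13 Rag and Ragulator genes were called in edgeR, with 1 higher and 1 lower at an unadjusted p (median 0.07). DESeq2 and limma voom each called 1, Slc38a9, beside 5.36% and 9.74% of all genes. Slc38a9, the lysosomal arginine sensor, stood at 23.1, 24.9 and 26.3 CPM in WT and at 19.1, 16.3 and 12.4 CPM in Cul5 cKO (log2 fold change -0.63, SE 0.162, adjusted p = 0.109). Rragd, a Rag GTPase, stood at 91.8, 84.5 and 78.7 CPM and at 107.9, 97.1 and 95.1 CPM (0.23, adjusted p = 0.184). Neither gene overlapped between genotypes, as was so for 27.5% of all tested genes, and both were picked for a low p.

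Of 17 GATOR, KICSTOR and sensor genes 1 was called in edgeR, and the sestrins, inhibitors of mTORC1, did not share a direction. Sesn2, which is induced by amino acid and endoplasmic reticulum stress, rose from 15.9, 12.9 and 15.4 CPM in WT to 25.2, 24.4 and 27.0 CPM in Cul5 cKO (log2 fold change 0.80, SE 0.112, adjusted p = 0.0255). Sesn1, a p53 and FOXO target, stood at 25.3, 28.2 and 29.4 CPM in WT and at 19.1, 19.5 and 18.9 CPM in Cul5 cKO (-0.52, SE 0.0901, adjusted p = 0.0512). Sesn3, named after its values were seen, stood at 143.9, 208.1 and 208.5 CPM and at 128.8, 140.6 and 111.5 CPM (-0.55, adjusted p = 0.122). DESeq2 and limma voom both called these 3 sestrins, beside 5.36% and 9.74% of all genes. Sesn3 had the opposite sign, 0.86, in the deposited table. The call of Sesn2 was lost when any sample but WT replicate 1 was left out, and its adjusted p ranged from 4.61e-05 to 0.141 over 19 other settings.

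In the PI3K and AKT arm 0 of 19 genes were called, with 3 higher and 3 lower at an unadjusted p (median -0.03). DESeq2 and limma voom each called 4, Akt1, Inpp4b, Pik3ap1 and Pik3r5, beside 5.36% and 9.74% of all genes. Akt1, the kinase that inhibits TSC2, stood at 306.6, 303.4 and 295.1 CPM in WT and at 365.2, 355.0 and 366.5 CPM in Cul5 cKO (log2 fold change 0.26, SE 0.0524, adjusted p = 0.0694). Inpp4b, a phosphatase that removes a PI3K product, stood at 336.1, 381.1 and 405.4 CPM and at 225.4, 290.6 and 252.3 CPM (-0.55, SE 0.11, adjusted p = 0.0701). Akt1 and Inpp4b, picked for a low p, did not overlap between genotypes, like 27.5% of all tested genes. In the energy arm, where Prkaa2 and Ddit4l were too low to test, 0 of 9 genes were called or had an unadjusted p under 0.05, and DESeq2 and limma voom called 0. Stk11, which encodes the AMPK kinase LKB1, was at 93.6 ± 1.16 and 102.3 ± 5.65 CPM (0.13, adjusted p = 0.311), and Prkab1, an AMPK subunit, at 44.3 ± 3.5 and 48.1 ± 2.24 CPM (0.11, adjusted p = 0.477).

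Among mTORC1 targets, 1 of 17 tested genes was called in edgeR and 2 were higher and 5 lower at an unadjusted p (median 0.06, Grb10 too low to test). DESeq2 called 2, Eif4ebp1 and Pdcd4, beside 5.36% of all genes. Limma voom called 5, these and Atg13, Eif4e and Maf1, beside 9.74% of all genes. Eif4ebp1, the translation repressor that mTORC1 phosphorylates, rose from 42.2, 38.9 and 38.7 CPM in WT to 53.8, 59.3 and 61.8 CPM in Cul5 cKO (log2 fold change 0.54, SE 0.0792, adjusted p = 0.0306). Its call was lost when WT replicate 2, WT replicate 3, Cul5 cKO replicate 2 or Cul5 cKO replicate 3 was left out, and its adjusted p ranged from 0.000279 to 0.193. Pdcd4, an inhibitor of the helicase eIF4A that is degraded after S6 kinase acts on it, stood at 181.4, 166.3 and 174.4 CPM in WT and at 124.2, 97.9 and 85.4 CPM in Cul5 cKO (-0.76, SE 0.133, adjusted p = 0.0512). Its adjusted p was under 0.05 in 10 of 19 other settings. Among those 10 are replicates 2 and 3 alone (0.00875) and replicate 1 as a term (0.00426), which are not used as support.

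The list of mTORC2 targets and the FOXO circuit had 0 of 12 genes called in edgeR. DESeq2 called 1 (Ccr7, beside 5.36% of all genes) and limma voom 4 (Ccr7, Klf2, Sgk1 and Tcf7, beside 9.74%). Of the 12 log2 fold changes 11 were below 0, those of the mTORC2 targets Prkca and Prkcq among them. The median over all genes tested was -0.01, and the list was chosen with earlier results of these data known. At an unadjusted p, 5 were lower (Prkcq, Foxo1, Klf2, Ccr7 and Tcf7, beside 10.4% of all genes) and 1 higher. The higher gene was Sgk1, a kinase that mTORC2 activates, at 329.0, 182.4 and 207.5 CPM in WT and 668.0, 414.5 and 411.3 CPM in Cul5 cKO (log2 fold change 1.05, SE 0.268, adjusted p = 0.109). Ccr7, the lymph node homing receptor, stood at 270.8, 408.6 and 382.1 CPM and at 246.5, 249.7 and 222.0 CPM (-0.56, SE 0.148, adjusted p = 0.111). Klf2, a FOXO1 target that keeps T cells quiescent and was named after its values were seen, stood at 40.1, 93.8 and 109.3 CPM and at 21.2, 47.5 and 27.7 CPM (-1.31, SE 0.416, adjusted p = 0.147). Klf2 overlapped between genotypes, through WT replicate 1.

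The list around ubiquitin ligases that act on DEPTOR held 7 genes, the kinase gene Csnk1a1 among them. Only Cul5, the deleted gene, was called in edgeR, DESeq2 and limma voom. Next was Btrc, the F-box protein of another such ligase, at 26.7 ± 0.996 and 23.7 ± 0.733 CPM (log2 fold change -0.17, adjusted p = 0.275).

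**Figure D5:**
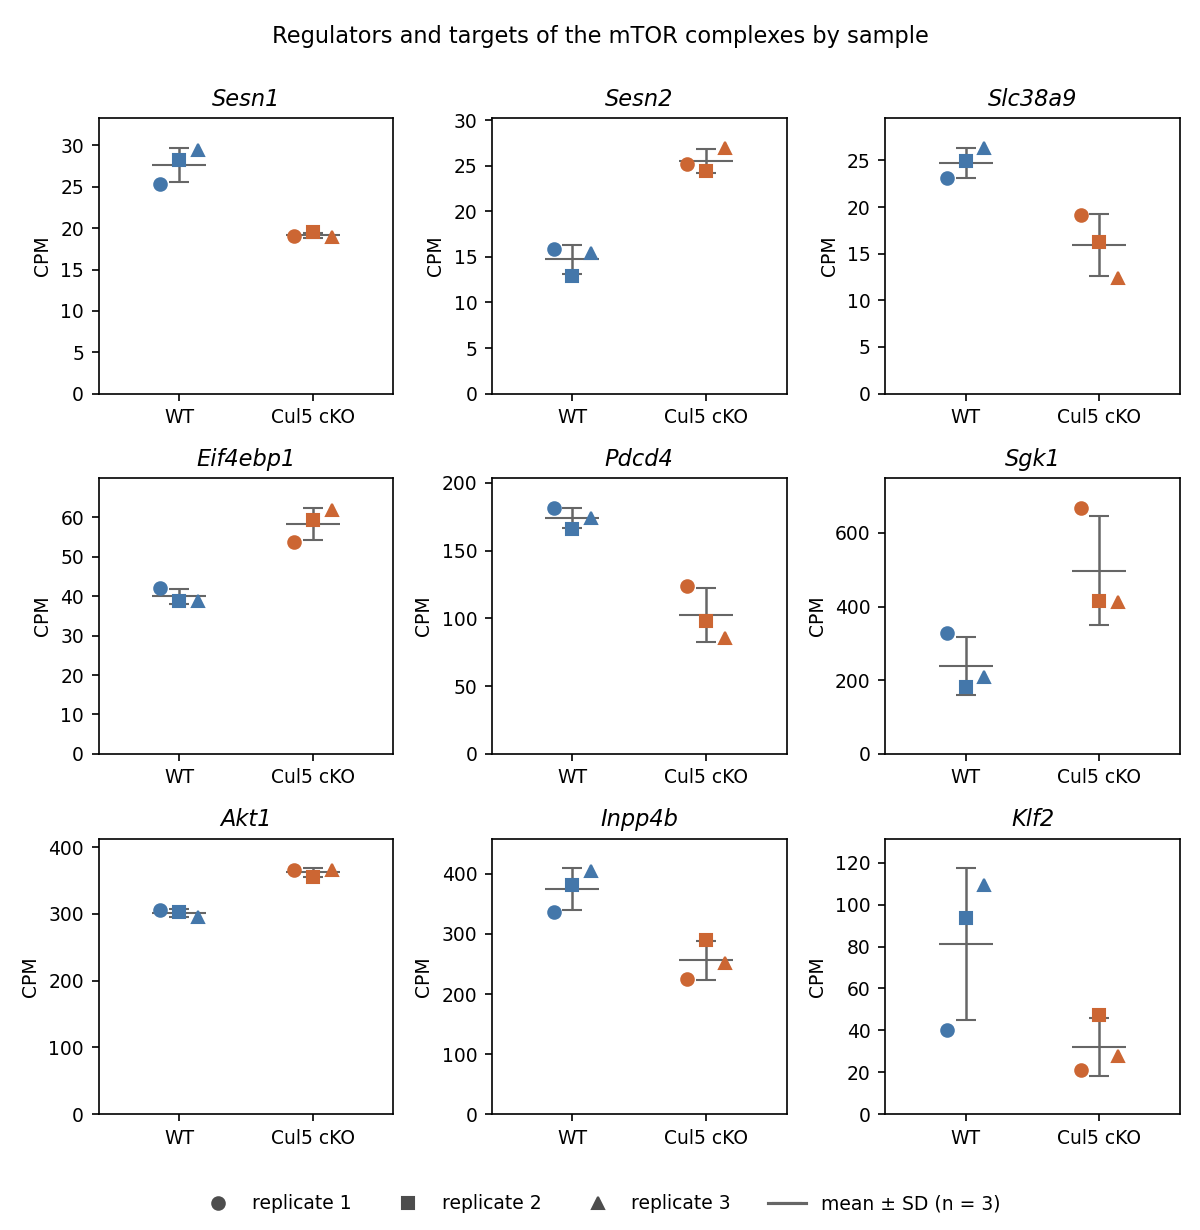
Normalized level in CPM (y axis, from 0) of 9 regulators and targets of the mTOR complexes in 3 WT and 3 Cul5 cKO samples, with the mean and SD. Sesn2 and Eif4ebp1 are the genes here with an adjusted p under 0.05, and Klf2 is the only panel in which the genotypes overlap. The other panels were picked by p-value in these data, which favours genes without overlap, and Klf2 after its values were seen. Of all tested genes, 27.5% did not overlap.

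The genes most like each of the 3 members with an unadjusted p under 0.05 were taken by Pearson's r of log2 CPM over the 6 samples, among 8693 genes with a mean of at least 10 CPM. This is a description, since the points share libraries and a genotype. For Pik3ip1 they were Tmie (r = 0.999, at 11.6, 20.5 and 23.8 CPM in WT and 7.34, 10.9 and 8.23 in Cul5 cKO), Pde3b (0.998) and Akap8l (0.998), and 5.71% of genes had r over 0.9. Klf2 was number 15 in that order (r = 0.991). For Rictor they were Mbtps1 (0.998), Cdc42se2 (0.998) and Fbxo46 (0.995), with 5.59% over 0.9. For Rheb they were Capzb (0.996), Rps29 (0.993) and Larp1b (0.986), with 3.49% over 0.9. The first 2 sets are genes high in WT replicates 2 and 3, and the last is genes high in Cul5 cKO replicates 2 and 3. None of these like genes was called.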

How the data were processed

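Poly-A RNA of 6 Th9 cultures was sequenced on a BGISEQ-500 with single-end reads of 50 bases. The authors ran kallisto 0.46.2 against the Ensembl transcriptome (GRCm38) and deposited, per sample, estimated counts and TPM of 119414 transcripts. A further deposited table gives log2 CPM per gene after TMM scaling (edgeR 3.34.0), and its fold change and p-value columns, the authors' own comparison, were not used. How transcripts were gathered into its genes is not given in the sources used here.

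Transcripts were summed by gene in GENCODE vM21 (97.7% matched), rounded, and filtered with the edgeR default. The 12925 genes kept were compared by genotype in edgeR 4.0.16 (TMM, quasi-likelihood test, two-sided, Benjamini-Hochberg over all genes) under R 4.3.3. The biological coefficient of variation was 16.1%. Intervals are 95% intervals of the fit. Exact permutation tests used log2 CPM. The fit was tested on simulated data. DESeq2 1.42.0 and limma 3.58.1 were alternatives, blastn 2.17.0 (95% identity over at least 150 bases) searched for shared sequence, and Python 3.11.15 drew the plots.

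The 9 genes and the pathway lists were chosen with earlier results of these data known. Named were these genes, Cul5, in each list the called genes and the 2 of lowest unadjusted p at 1 CPM or more, and the 3 genes most like each of them that had an unadjusted p under 0.05. Klf2, Sesn3 and Il9 were added after their values were seen.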

Additional observations from a re-analysis of the deposited data

How the results depend on the processing

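The number of genes called, 133 with all 6 samples, was 228 with no filter beyond 1 count, 60 with counts scaled from TPM, 1688 with replicate 1 as a term, 1153 with replicates 2 and 3 alone, 693 with DESeq2, 1259 with limma voom and quality weights, 27 and 30 on the log scale of TPM with pseudocounts of 1 and 0.1 (limma), 42 on the deposited table, 2362 by the unadjusted criterion of the study and 2753 by the unadjusted p of the same fit. Leaving out 1 sample gave 2 to 316 (2 without WT replicate 2 or WT replicate 3, 3 without Cul5 cKO replicate 3, 316 without WT replicate 1). Of the 9 genes, none called with all samples, 2 were called with replicate 1 as a term, 3 with replicates 2 and 3 alone, 1 with DESeq2 (Pik3ip1), 2 with voom, 1 by the criterion of the study and 3 by the unadjusted p, and 0 to 2 when 1 sample was left out. Of the pathway genes, 3 called with all samples, the count was 5 with library size alone and with at least 10 counts in every sample, 6 with no filter, 22 with replicate 1 as a term or with replicates 2 and 3 alone, 12 with DESeq2, 20 with voom, 1 in each of the limma fits on TPM and on the table, 19 by the criterion of the study and 27 by the unadjusted p, and 1 to 10 when 1 sample was left out. Some of these settings make different numbers of genes or samples available, and otherwise the cause was not tested.

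Same-numbered samples of the genotypes had deviations that correlated at 0.37, 0.206 and 0.0245, and WT replicate 3 went best with Cul5 cKO replicate 2 (0.0914), so the numbers are not taken as pairs. A replicate block gave 848 genes, 2 of the 9 genes (Pik3ip1 and Rictor) and 14 pathway genes.

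Of 189 log2 fold changes of the 9 genes under other settings, 154 kept their direction and their side of the threshold. Another 17 kept the direction and came under it, and 18 turned sign, none of these called. The settings include the criterion of the study and the unadjusted p of the same fit, both judged by an unadjusted p. The latter repeats the fold changes of the main fit, so their direction could not change. By adjusted p, Rictor came under the threshold in 5 settings, Rheb in 2 and Pik3ip1 in 6. The rest of the 17 did so only by an unadjusted p. Mtor turned to -0.02 with library size alone and without WT replicate 1, -0.15 with counts scaled from TPM, -0.06 with replicates 2 and 3 alone, -0.01 without Cul5 cKO replicate 1, -0.04 with voom, -0.18 and -0.19 in the TPM fits with pseudocounts of 1 and 0.1, and -0.17 in the table. Tsc2 turned to -0.02 with library size alone, -0.05 with counts scaled from TPM, -0.0018 after thinning, -0.10 in both TPM fits and -0.21 in the table. Mlst8 turned to 0.03 with counts scaled from TPM and 0.11 in the table, and Rptor to 0.02 without WT replicate 2. When 1 sample was left out, Mtor ranged from -0.02 to 0.06 and Rptor from -0.13 to 0.02. No setting moved the median of all genes by over 0.1 on the log2 scale. Depth limits Deptor above all, with 19 counts in WT replicate 3.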
